A study of Mus musculus with 16 samples.

Results

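The regions described are broad domains of histone H3 lysine 27 acetylation (H3K27ac) in control mouse embryos. They are the peaks of the control H3K27ac list that lay on chromosomes 1 to 19 and were wider than 10 kb. The members were chosen by the measured width of the control peak, so widths are given as a description. There were 5827 such domains among 73320 control H3K27ac peaks on these chromosomes, that is 7.95% of the peaks and 42.2% of the bases they covered, and among 372612 peaks in the 4 deposited lists.

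The embryos were late 2-cell mouse embryos taken 36 h after fertilization. Control embryos had been injected with water at the zygote stage and mutant embryos with mRNA of an Hdac1 mutant; the labels give neither the amino acid change nor the mouse strain. H3K27ac and trimethylation of histone H3 lysine 4 (H3K4me3) were profiled by native chromatin immunoprecipitation from very few cells (ULI-NChIP-seq), in which chromatin is digested with micrococcal nuclease and bound fragments are sequenced. For each mark and injection there were 2 immunoprecipitation and 2 input libraries but a single list of peak positions, so no value below has a replicate error, no test of the conditions was possible, and depth is unknown.

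Acetyl groups on H3K27 are placed by the acetyltransferases p300 and CBP and removed by histone deacetylases, among them Hdac1 and Hdac2. H3K27ac marks active promoters and enhancers, and long unbroken stretches of it lie over clusters of such elements. H3K4me3 is deposited mainly around active and CpG-rich promoters. The late 2-cell stage is the time of the major wave of genome activation in the mouse, when the embryo first transcribes its own genes on a large scale. The comparison asks where both marks lie at that time after injection of the mutant Hdac1 mRNA or of water.

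The domains spanned 101.9 Mb in all. Their median width was 14407 bp, with quartiles of 11782 and 20025 bp and a maximum of 102512 bp. Of the domains, 1462 were wider than 20 kb, 475 wider than 30 kb and 68 wider than 50 kb. The narrowest members measured 10002 bp near Ap2s1 and 10003 bp over Adrm1 and near Nup35. The widest peaks left out by the limit measured 9999, 9996 and 9995 bp, near Vmn2r95, near Pecam1 and over Ap3d1. Chromosome 11 held the most domains, 678 or 5.56 per Mb, and chromosome 3 the fewest per Mb, 1.36.

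Promoter sequences from 6 of the widest domains are shown as examples of gene starts inside them. They are the 250 bases before the RefSeq gene start (GRCm38.p6), on the strand of the gene, with the matches to 6 short motifs in capitals. The motifs, read on both strands, were GGGCGG (the GC box bound by Sp and Klf factors), CCAAT (bound by NF-Y), CCGGAAG (an ETS core), the core palindrome of NRF1, GGATTA (a homeodomain core of the Otx and Obox type) and CAAGGTCA (Nr5a2).
Pla2g15, chr8:106150104-106150353, plus strand: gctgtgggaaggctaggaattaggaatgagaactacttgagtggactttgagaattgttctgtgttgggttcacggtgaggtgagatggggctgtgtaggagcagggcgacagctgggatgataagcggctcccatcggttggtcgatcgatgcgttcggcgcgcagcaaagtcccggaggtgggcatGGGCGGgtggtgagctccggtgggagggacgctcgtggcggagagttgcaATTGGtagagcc
Arid1a, chr4:133756770-133757019, minus strand: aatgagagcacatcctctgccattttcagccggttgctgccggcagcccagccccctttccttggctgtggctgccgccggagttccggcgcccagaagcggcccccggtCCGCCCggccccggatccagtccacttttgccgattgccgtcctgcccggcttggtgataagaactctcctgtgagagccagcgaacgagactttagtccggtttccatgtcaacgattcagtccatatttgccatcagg
1810009A15Rik, chr19:8888633-8888882, plus strand: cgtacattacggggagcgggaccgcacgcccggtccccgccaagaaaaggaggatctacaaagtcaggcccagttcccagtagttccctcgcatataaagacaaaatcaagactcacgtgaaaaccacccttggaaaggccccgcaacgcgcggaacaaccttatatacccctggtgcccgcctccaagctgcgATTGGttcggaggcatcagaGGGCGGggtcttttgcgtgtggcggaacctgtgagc
Tbcc, chr17:46890371-46890620, plus strand: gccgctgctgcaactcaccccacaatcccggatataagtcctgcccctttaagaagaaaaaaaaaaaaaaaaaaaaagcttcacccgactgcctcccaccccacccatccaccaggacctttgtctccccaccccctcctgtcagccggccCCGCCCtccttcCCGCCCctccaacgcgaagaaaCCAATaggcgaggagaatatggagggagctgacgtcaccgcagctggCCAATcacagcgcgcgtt
Ambra1, chr2:91729888-91730137, plus strand: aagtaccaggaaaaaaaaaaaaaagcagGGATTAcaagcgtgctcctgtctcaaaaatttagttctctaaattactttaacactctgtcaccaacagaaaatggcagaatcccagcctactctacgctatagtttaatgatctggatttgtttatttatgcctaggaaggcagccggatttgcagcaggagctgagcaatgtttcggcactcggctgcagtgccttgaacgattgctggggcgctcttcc
Rab42, chr4:132303357-132303606, minus strand: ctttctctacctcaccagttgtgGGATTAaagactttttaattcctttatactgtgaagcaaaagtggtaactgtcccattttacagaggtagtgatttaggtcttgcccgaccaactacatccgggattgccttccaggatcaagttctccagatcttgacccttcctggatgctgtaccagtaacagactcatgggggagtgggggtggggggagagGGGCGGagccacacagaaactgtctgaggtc

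In these windows the GC box occurred upstream of 5 of the 6 genes, CCAAT upstream of 3 and GGATTA upstream of 2. The 6 windows held between 3 (Rab42) and 19 (1810009A15Rik) CpG and between 44% (Ambra1) and 61.2% (Arid1a) GC. All 6 starts lay under an H3K4me3 peak of each list. Mutant H3K27ac peaks covered the starts of 5 genes, the exception being Tbcc, which encodes a tubulin folding cofactor. Of the 20084 starts of protein-coding genes that RefSeq entries gave, 3344 lay in a domain (16.7%). Their upstream windows had a median GC content and CpG count of 59.6% and 16, against 56% and 10 over all windows. GGGCGG was present in 56.5% of the windows in domains and in 43.4% of all windows, CCGGAAG in 15.7% and 9.21%, and the NRF1 core in 1.73% and 1.08%. The shares of the other motifs lay closer together, with 33.7% and 35.3% for CCAAT, 5.89% and 5.81% for GGATTA, and 1.17% and 1.18% for CAAGGTCA.

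As the lists were deposited, most domains were divided in the mutant list. Of the 5827 domains, 4083 were overlapped by 2 or more mutant H3K27ac peaks, which is 70.1% (95% Wilson interval 68.9 to 71.2, counting error only). The same held for 11.5% of all control H3K27ac peaks, whose median width was 1205 bp. Closing gaps of under 1 kb in the mutant list alone left 46.1% of the domains divided. A single mutant peak overlapped 1369 domains, and 375 domains (6.44%, 5.83 to 7.09) had none, against 60.5% of all control peaks. Exactly 2 pieces lay over 1814 domains, 3 over 1141, 4 over 618 and 5 or more over 510, with a maximum of 14. The share divided was 53.2% for domains of 10 to 12 kb and 98.1% for those over 30 kb. Per 10 kb of domain the number of mutant peaks was lower in the wider classes, 1.48 at 10 to 12 kb and 1.23 over 30 kb.

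**Figure D1:**
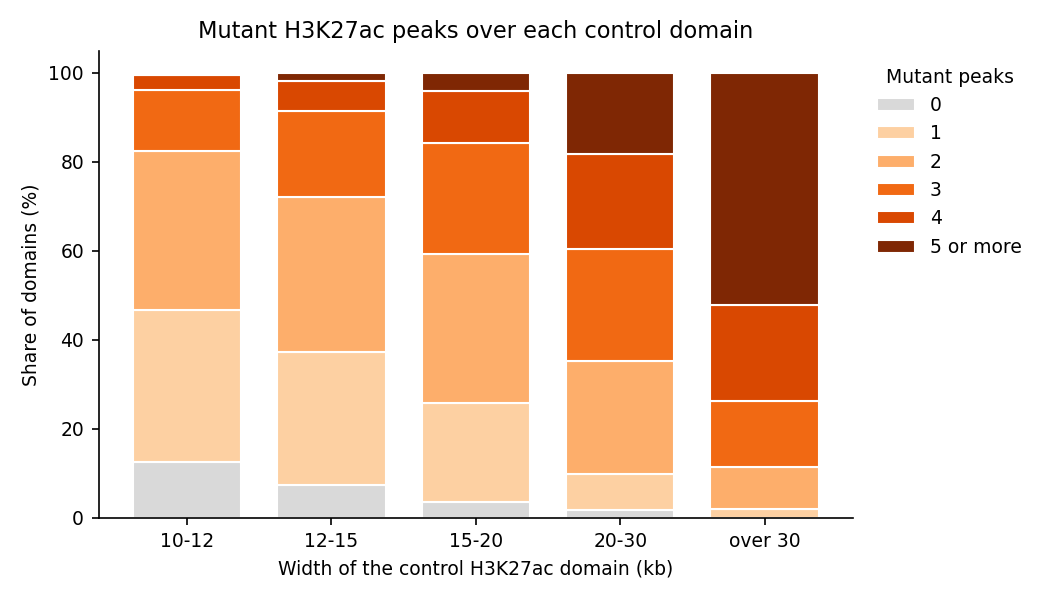
Bars give the share of control H3K27ac domains (vertical axis, %) overlapped by 0, 1, 2, 3, 4 or 5 or more mutant H3K27ac peaks, for 5 classes of domain width in kb (horizontal axis). The share with 2 or more pieces was 53.2% at 10 to 12 kb and 98.1% over 30 kb, where no domain lacked a mutant peak.

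The breaks were mostly short. Between the mutant pieces lay 8496 gaps with a median of 922 bp and quartiles of 712 and 2203 bp. Of these, 4685 (55.1%) were under 1 kb and 937 (11.03%) over 5 kb, and the longest measured 26243 bp. The shortest gap anywhere in the mutant list was 602 bp and in the control list 681 bp. After merging across gaps of under 1 kb in all lists, 51.97% of 6523 domains were divided. With common limits in all lists (gaps under 750 bp closed, peaks under 200 bp dropped) the share was 60.4% of 6093 domains.

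The part of the domains covered by mutant H3K27ac peaks was 54.8% of their bases, or 55.8 Mb. The median over domains was 56.2%, with quartiles of 32.3% and 75.9%. Flanks of the same width on either side of each domain were covered to 38.1% by mutant peaks and to 46.3% by other control H3K27ac peaks, and the mutant list covered 9.64% of chromosomes 1 to 19. At least 90% was covered in 517 and under 10% in 621 of the 5827 domains, counts not made for other control H3K27ac peaks. The median of the widest piece inside a domain was 5825.5 bp, and 928 domains still held a mutant piece of over 10 kb. Of the 46.1 Mb without mutant H3K27ac, 51.1% lay at the domain edges, 38.5% in gaps between pieces and 10.4% in the domains with no mutant peak. Mutant peaks nevertheless crossed 4759 of the 11654 domain edges (40.8%), and 327 mutant peaks joined 2 or more neighbouring domains.

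**Figure D2:**
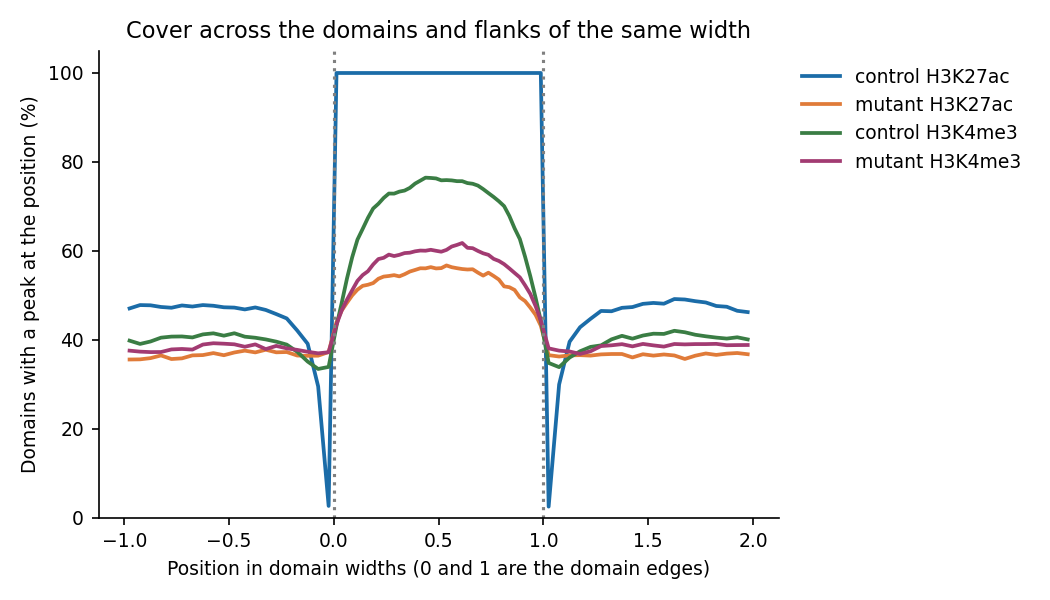
Lines give the share of the 5827 domains (vertical axis, %) that had a peak of each list at a position given in domain widths (horizontal axis), with the domain from 0 to 1 and a flank of the same width on each side. Control H3K27ac is 100% inside by the choice of the domains, while control H3K4me3, mutant H3K4me3 and mutant H3K27ac are highest near the domain centre.

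Division was set beside other groups of peaks. Of the 9025 control H3K27ac peaks of 5 to 10 kb, 31.2% were divided in the mutant list, 23.4% had no mutant peak and 43.7% of the bases were covered. The 4070 control H3K4me3 peaks over 10 kb, of a median width of 13490 bp, were close to the domains when laid against the same mutant H3K27ac list. Of these peaks 66.4% were divided, with 1.38 mutant H3K27ac peaks per 10 kb and 55.8% of the bases covered. In the reverse direction, 46.1% (44.2 to 48.0) of the 2636 mutant H3K27ac peaks over 10 kb were divided in the control list and 70.8% of their bases were covered. In the mutant H3K4me3 list 52.5% (51.0 to 54.1) of the control H3K4me3 peaks over 10 kb were divided and 76.9% of their bases were covered. The mutant H3K27ac list as a whole held more and shorter peaks, 114737 covering 237.2 Mb against 73320 covering 241.8 Mb in control. Mutant H3K27ac peaks numbered 1.37 per 10 kb of domain, 1.63 per 10 kb of control peaks of 5 to 10 kb and 1.76 per 10 kb of all control peaks. Between 12 and 15 kb the share divided was 62.7% for the control H3K27ac domains, 47.2% for mutant H3K27ac peaks laid against control and 46.5% for control H3K4me3 peaks laid against mutant H3K4me3. Mutant H3K4me3 peaks of that width laid against the control H3K4me3 list were divided in 54.5%. Each value compares single lists, and the differences were not tested.

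H3K4me3 covered most of the domains in control embryos. Control H3K4me3 peaks covered 70.8% of the domain bases, with a median over domains of 73.3% (quartiles 52.2% and 88.4%), against 41.6% of the flanks. Only 100 domains (1.72%) had no control H3K4me3 peak, while 59.3% of all control H3K27ac peaks had none. In mutant embryos H3K4me3 covered 58.7% of the domain bases, with a median of 62.04%, and 521 domains (8.94%) had no mutant H3K4me3 peak, against 62.4% of all control H3K27ac peaks. Lower H3K4me3 cover in the mutant list was also measured outside the domains. Control H3K27ac peaks of 5 to 10 kb were covered to 53.5% in control and 43.6% in mutant embryos, and the flanks to 41.6% and 39.9%. Over chromosomes 1 to 19 as a whole the mutant H3K4me3 list covered more sequence, 272.9 Mb against 246.7 Mb. H3K4me3 cover was lower by more than 25 percentage points in 1573 of the 5827 domains (26.995%). It was higher by more than 25 points in 355 (6.09%). These counts were not made for other control H3K27ac peaks, so they are not shown to be particular to the domains.

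The marks were also compared base by base. Where mutant H3K27ac covered the domain, 76.4% of the bases had control H3K4me3 and 64.6% mutant H3K4me3. Where it did not, the values were 63.9% and 51.6%, so peaks of the mutant H3K4me3 list covered less of both kinds of bases. Both kinds lay in domains chosen on the control H3K27ac list, and the difference was not tested. In 4487 domains control H3K4me3 covered at least 50% of the width. Of these, 2100 (46.8%) were covered by at least 50% of each mark in mutant embryos, 1136 (25.3%) by H3K4me3 alone, 670 (14.9%) by H3K27ac alone and 581 (12.9%) by neither. The same classes were not counted over other control H3K27ac peaks, so these shares are not shown to be particular to the domains.

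Gene content was examined on GRCm38. A protein-coding gene overlapped 4744 domains (81.4%), close to the 80.3% of their flanks, and 67.7% of control H3K27ac peaks of 5 to 10 kb. Of the domains, 3375 lay over a single gene and 1369 over 2 or more, at most 11. A listed gene start lay in 36.3% of the domains and in 27.6% of the flanks. Of the 20661 protein-coding genes on these chromosomes, 5092 (24.6%) overlapped a domain, and 1117 of these overlapped more than one. The 1083 domains between genes lay at a median of 13331 bp from the nearest gene, and 47 lay over 100 kb away. Among other classes of genes, 13.2% of miRNA genes, 10.3% of snoRNA genes and 9.13% of lncRNA genes overlapped a domain.

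Around gene starts in domains the marks differed. At the start itself mutant H3K27ac covered 57.9% of the 3344 starts, mutant H3K4me3 92.0% and control H3K4me3 96.4%; control H3K27ac covers each by the choice of the domains. Mutant H3K27ac covered 49% of the positions 10 kb upstream of these starts and 44.2% of those 10 kb downstream, and control H3K4me3 62.2% and 53.7%. Control H3K27ac itself covered 71.1% and 66.1% at these distances. Starts outside domains had 23.5% control and 23.03% mutant H3K27ac, and 61.6% control and 58.8% mutant H3K4me3. Gene starts were about as dense on domain bases with mutant H3K27ac (34.7 per Mb) as on those without (30.5 per Mb), and 4.91% of the gaps between pieces held a start.

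**Figure D3:**
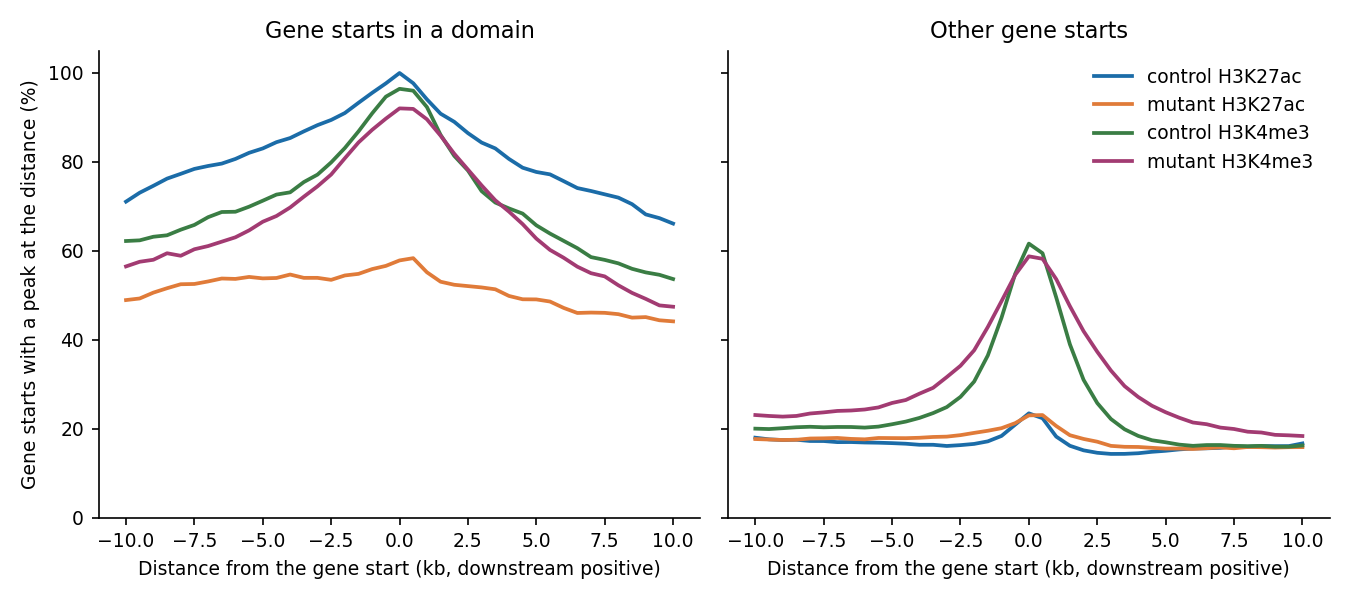
Lines give the share of protein-coding gene starts (vertical axis, %) with a peak of each list at distances of up to 10 kb (horizontal axis, downstream positive), for starts in a domain (left) and other starts (right). At starts in domains H3K4me3 stands at 96.4% in control and 92.0% in mutant embryos, and mutant H3K27ac at 57.9%.

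H3K4me3 cover differed between domains with and without a listed start. In the 2115 domains with a start it was 79.4% of the bases in control and 70.5% in mutant embryos. In the 2629 domains over a gene but without a listed start it was 61.8% and 46.3%, and in the domains between genes 70.8% and 59.4%. Mutant H3K27ac cover varied less, with 57.03%, 53.4% and 52.2% in the same order. Median widths also differed, with 17101, 13800 and 12942 bp in that order, and the groups were not matched for width. Cover was higher in wider domains. From 10 to 12 kb to over 30 kb it went from 62.1% to 81.2% for control H3K4me3 and from 47.8% to 61.6% for mutant H3K27ac. The promoter table holds starts for 16456 of the 20661 genes, so some domains counted as lacking a start may hold one.

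The 10 widest domains measured 75751 to 102512 bp and were each overlapped by 7 to 14 mutant H3K27ac peaks. The widest (chr8:106078915-106181426) lay over Nfatc3, a calcium-regulated transcription factor gene, Esrp2, Pla2g15 and Slc7a6. It had 13 mutant pieces covering 52.4%, and H3K4me3 covered 89.4% of it in control and 65.5% in mutant embryos. The second (chr4:133750994-133844588, 93595 bp) lay over Gm34296 and, only in the 5776 bp at its left edge, over Arid1a, a subunit of the BAF chromatin remodeller. Its 13 mutant pieces covered 71.3%. The next (chr17:83638964-83732479, 93516 bp) lay over Mta3, a subunit of the NuRD deacetylase complex, with 13 pieces and 56.8%. It overlapped Mta3 only from 67199 bp past its left edge onward. A domain of 86231 bp on chromosome 19 (8844351 to 8930581) lay over 11 genes, from Bscl2, the seipin gene of lipid droplets, to Eml3. Its 10 mutant pieces covered 72.5%.

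**Figure D4:**
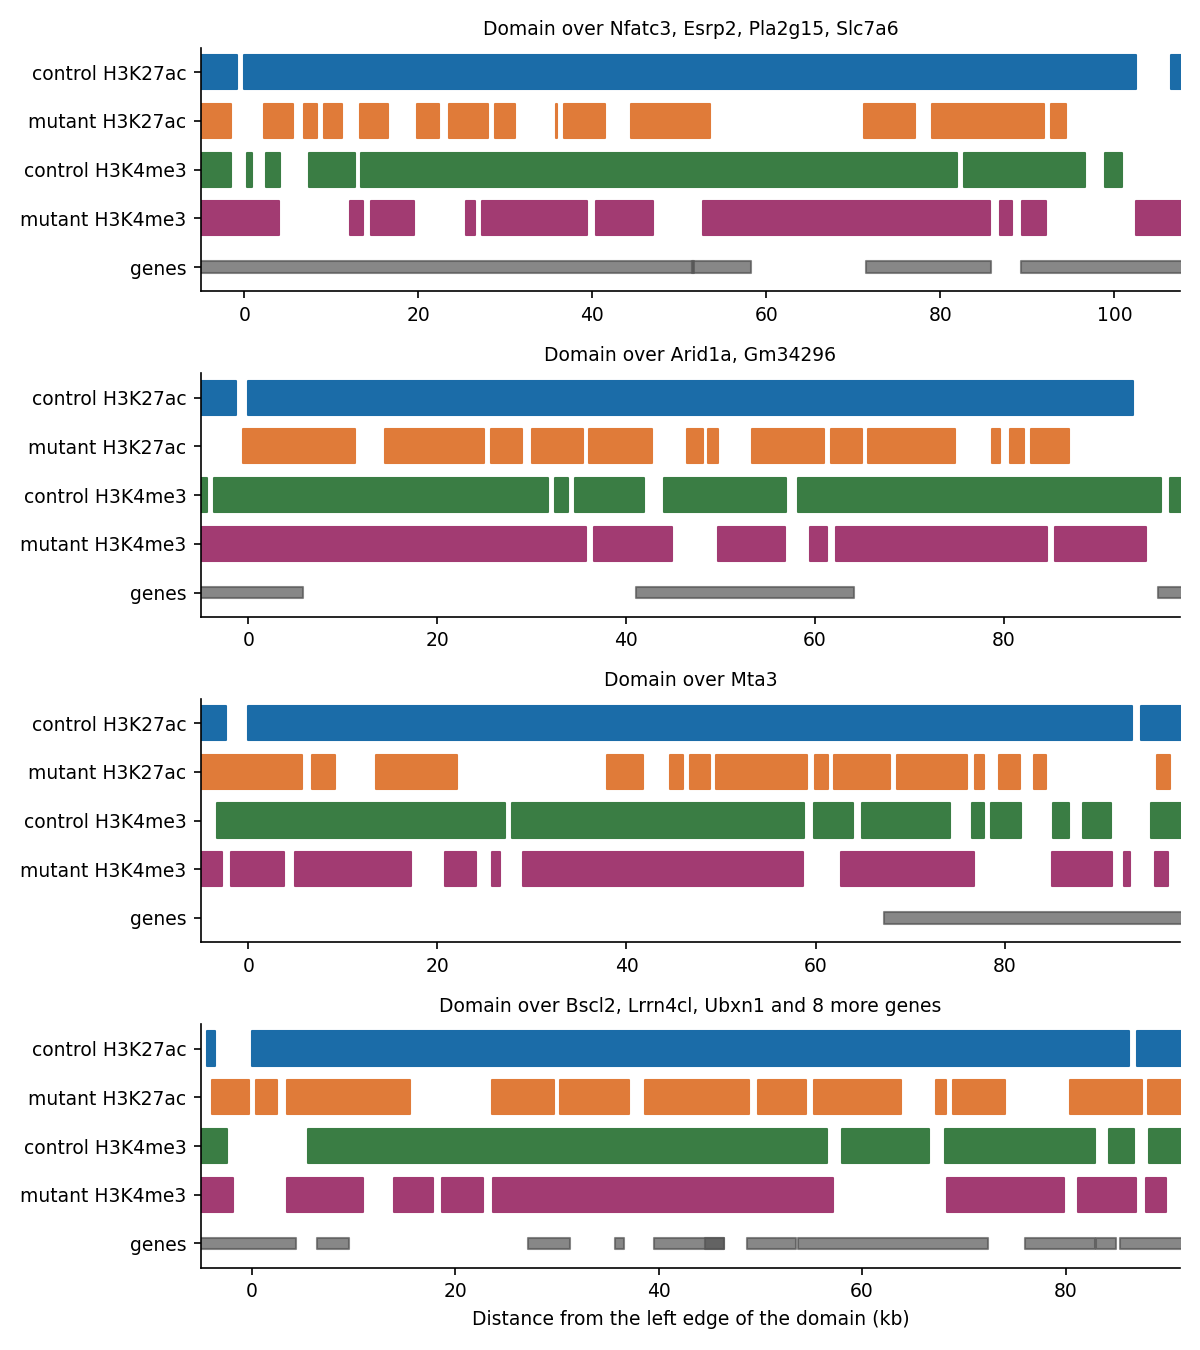
Each panel maps one of the 4 widest domains, with distance from its left edge in kb on the horizontal axis. Rows show the peaks of the 4 lists and the spans of protein-coding genes. The single control H3K27ac bar of each domain faces 13, 13, 13 and 10 mutant pieces.

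Among the remaining widest domains, the one over Rab42, Trnau1ap, Rcc1 and Phactr4 (chr4:132295295-132371690, 76396 bp) had the fewest pieces, 7, and the highest cover, 88.6%. Rcc1 encodes the exchange factor of the GTPase Ran. The domain over Bicral and Tbcc (chr17:46820572-46901537, 80966 bp) had 8 pieces and the lowest cover, 45.3%. Others were the domains at Ugcg (57.4%), at the autophagy genes Atg13 and Ambra1 with Harbi1 (75.7%), and at Hnrnpf with Zfp637, Zfp239 and 4933440N22Rik (79.2%). In all 10 the H3K4me3 cover was lower in mutant than in control embryos, by the least at Ugcg (78.0% and 77.1%).

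Some domains had no counterpart in the mutant list. The 5 widest measured 23909 to 29299 bp. They lay near Rreb1, over Btaf1, over Zbtb5 and the RNA polymerase I subunit gene Polr1e, over Mkrn1, which encodes a ubiquitin ligase, and over Pemt, an enzyme of phosphatidylcholine synthesis. H3K4me3 was still called over each of them. Its cover was 83.2% in control and 34.3% in mutant embryos near Rreb1 and 79.5% and 22.5% at Btaf1. It was 91.2% and 73.4% at Mkrn1 (chr6:39410258-39438452), 76.9% and 78.2% at Zbtb5, and 88.0% and 89.1% at Pemt (chr11:60030575-60054483). Mutant H3K4me3 cover was the lower of both at 3 of the 5 domains.

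At the other end, 154 of the 5827 domains (a count not made for other control H3K27ac peaks) were covered to at least 95% by 1 mutant peak. The widest of them, 23234 bp on chromosome 2 (73788507 to 73811740), lay 4769 bp from Atf2, a stress-responsive transcription factor gene. It was covered to 95.8% by mutant H3K27ac and to 95.9% and 79.8% by control and mutant H3K4me3. The domain near Txnip, a regulator of glucose uptake (chr3:96535160-96556280), was covered to 97.3%, with H3K4me3 cover of 94.3% in control and 92.1% in mutant embryos. Those over H2-Oa, Plekhg3 and Ogdh, a subunit of the 2-oxoglutarate dehydrogenase, had 98.0%, 100% and 100% mutant H3K27ac cover. At these 3 H3K4me3 cover was higher in mutant than in control embryos, with 79.3% in control and 92.8% in mutant embryos at H2-Oa, 78.2% and 89.3% at Plekhg3, and 41.1% and 55.9% at Ogdh.

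Of the 5827 domains, 46 had no H3K4me3 peak in either list. The joint share over all control H3K27ac peaks was not computed. Their single shares without a peak were 59.3% for the control and 62.4% for the mutant H3K4me3 list. The 5 widest of the 46 domains, of 14180 to 19584 bp, lay over Nav2, Dennd4a, Fryl, Dcaf10 and Acaca, the last encoding acetyl-CoA carboxylase. Mutant H3K27ac covered 12.8% of the domain in Nav2, 37.3% in Dennd4a, 14.8% in Fryl and 9.92% in Acaca, all under the median of 56.2%. At Dcaf10 6 pieces covered 59.9%.

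The domains were then set against 12 lists of genes. The count of list members over a domain was read against 24.6% of all protein-coding genes. An overlap of 1 bp with the gene span counted, and the gene lists were not matched for gene length. Genes over a domain had a median length of 23355.5 bp, against 17491 bp for all protein-coding genes. Ribosomal protein genes of the cytosol stood highest, with 62 of 74 genes (83.8%). Histone acetyltransferases and acetyl-lysine readers followed with 12 of 15 (80%), translation factors with 25 of 36 (69.4%) and ribosome biogenesis genes with 32 of 51 (62.7%). Splicing factors and hnRNPs (25 of 48) and the proteasome (16 of 32) were near 50%. Deacetylases and their complexes (14 of 33), chaperones (10 of 24), pluripotency and early lineage genes (9 of 26), oocyte genes (9 of 29) and 2-cell genes (10 of 33) lay between 30.3% and 42.4%. Of 34 genes of differentiated tissues none overlapped a domain.

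**Figure D5:**
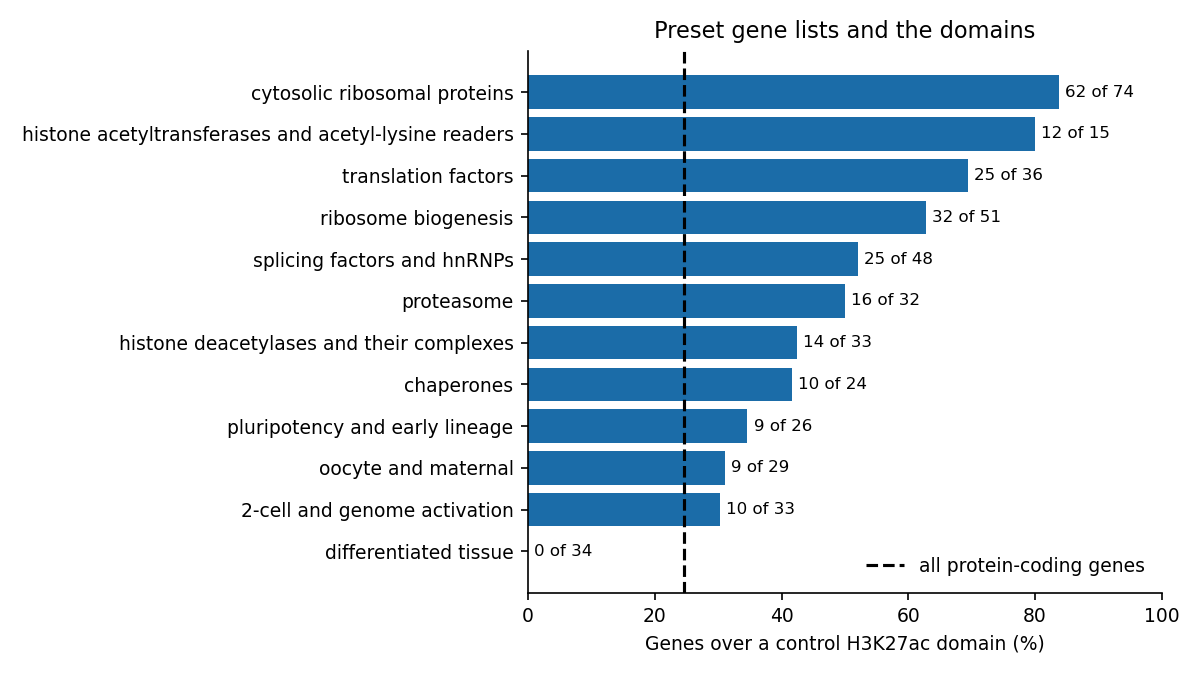
Bars give the share of each gene list (horizontal axis, %) that overlapped a control H3K27ac domain, with the number of genes over a domain of the number placed on chromosomes 1 to 19. The dashed line is the share of all protein-coding genes, 24.6%, and the cytosolic ribosomal protein genes stand highest at 62 of 74.

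The ribosomal protein genes are short, and the domains reached far beyond them. The widest was 58424 bp at Rps2 (chr17:24680059-24738482), where 5 mutant H3K27ac pieces covered 72.5% and H3K4me3 covered 90.1% in control and 85.0% in mutant embryos. At Rps29 a domain of 52464 bp had 5 pieces and 50.6%. The 64 domains over these genes had a median width of 20488 bp and were divided in 54 cases. Of all 4744 domains over a gene, whose median width was 14928 bp, 71.1% were divided, and of all domains of 20 to 30 kb 90.2%. The ribosomal protein domains had a median mutant H3K27ac cover of 63.3%, against 56.8% for the 4744 domains over any gene and 63.7% for the 665 that held a whole gene, whose median width was 21080 bp and of which 80.9% were divided. Their median H3K4me3 cover was 88.3% in control and 86.3% in mutant embryos. In the domains that held a whole gene it was 82.8% and 78.0%, and 73.1% and 61.8% in all domains with a gene. Of the 64 domains, 3 had no mutant H3K27ac peak, against 6.03% of all domains over a gene. They lay at Rplp2, Rpl18 and Rps15a, named after their values were seen, and mutant H3K4me3 covered 100%, 79.5% and 85.8% of them. Ribosomal protein genes have many processed copies in the genome, and the placement of reads between them is not given in the sources used here.

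The 35 domains over ribosome biogenesis genes had a median width of 23849 bp and were divided in 30 cases, against 71.1% of all domains over a gene and 90.2% of those of 20 to 30 kb, with a median mutant H3K27ac cover of 59.7%. At Wdr43, a subunit of the small-subunit processome, the domain (chr17:71578133-71622114, 43982 bp) had 5 pieces covering 57.6%. At Nip7, a pre-rRNA processing factor, 6 pieces covered 57.2% of 36493 bp, and at Utp4 5 pieces covered 53.2% of 30118 bp. The domain of 34028 bp at Utp6 differed, with 2 pieces covering 8.33%, while H3K4me3 covered 100% of it in control and 94.9% in mutant embryos. Domains at Ubtf, the RNA polymerase I transcription factor, and Brix1 had no mutant peak; both were named after their values were seen. For translation factors 25 of 30 domains, of a median width of 17137 bp, were divided, against 74.2% of all domains of 15 to 20 kb, and the median cover was 60.1%. The widest were 37238 bp at Eif3i (7 pieces, 70.0%), 29457 bp at Eif4a2, an RNA helicase of initiation (4 pieces, 72.8%), and 29367 bp at Eif4h (4 pieces, 87.9%). At Eif5a, a factor of elongation, 2 pieces covered 19.4% of 26509 bp and mutant H3K4me3 97.1%.

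Splicing, protein turnover and folding genes had lower medians of mutant H3K27ac cover than the 56.8% of all domains over a gene. Their domains were divided in 27 of 30, 14 of 19 and 10 of 12 cases, against 71.1% of all domains over a gene. Their median widths were 21249.5, 14196 and 15570.5 bp, against 14928 bp. The 30 domains over splicing factors and hnRNPs had a median mutant H3K27ac cover of 50.6%, and their median H3K4me3 cover was 83.3% in control and 61.4% in mutant embryos. Beside Hnrnpf, the widest were 40012 bp at Prpf8, the core protein of the spliceosome (3 pieces, 59.8%), 37239 bp at Hnrnpc (5 pieces, 54.1%) and 35733 bp at Srsf3 (4 pieces, 49.8%). The 19 proteasome domains had the lowest median, 43.7%. There Psmd12 had 54451 bp with 6 pieces and 72.5%, Psmd11 36649 bp with 5 pieces and 28.6%, and Psma6 32863 bp with 4 pieces and 38.2%. Of the 19 domains 2 had no mutant H3K27ac peak, at Psmc4 and Psma4, named after their values were seen. The share was 6.03% over all domains over a gene. Chaperone domains had a median of 50.8%, with 84.7% of 46017 bp covered at Cct3, a subunit of the TRiC chaperonin, and 43.0% of 31067 bp at Hspa8, the constitutive Hsc70.

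Genes that write, read and erase acetylation lay under domains as well. The 21 domains over acetyltransferases and readers had a median mutant H3K27ac cover of 72.01%, against 56.8% over all domains with a gene, and were divided in 18 cases, against a share of 71.1%. Wide examples were 31395 bp at Kat8, an H4 acetyltransferase (2 pieces, 53.1%), 29167 bp at Kat7 (3 pieces, 49.2%) and 26504 bp at Ep300, the gene of p300 (2 pieces, 55.3%). The 23 domains over deacetylases and their complexes were divided in 12 cases, below that share, with a median of 54.3%. Beside Mta3 they included 49612 bp at Rbbp4, a histone chaperone subunit of several complexes (7 pieces, 87.7%), 40472 bp at Gatad2b (4 pieces, 61.4%) and 31095 bp at Gatad2a (5 pieces, 87.6%). Hdac1, Sin3a and Chd4 were named after their values were seen. Hdac1 overlapped 2 domains, and the wider (13709 bp) had 2 mutant pieces covering 48.7% and was covered to 100% by H3K4me3 in each list. The domain at Sin3a had 7.65% mutant H3K27ac cover, and the one shared by Chd4 and the ribosome biogenesis gene Nop2 had 6.61%.

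The 2-cell genes had 10 domains, of which 6 were divided, against 71.1% of all domains over a gene, with a median mutant H3K27ac cover of 66.7%. The widest lay at Rarg, a retinoic acid receptor (chr15:102246600-102316601, 70002 bp), with 10 pieces covering 67.4%. At Dppa2, an activator of 2-cell transcription (chr16:48295425-48342107, 46683 bp), 10 pieces covered 70.5%, and H3K4me3 covered 87.5% in control and 65.1% in mutant embryos. The domain beside it at Dppa4 (13866 bp), a gene named after its value was seen, had 2 pieces and 62.7%. A domain of 25410 bp over Usp17la and Usp17lb had 4 pieces and 60.5%, but these genes belong to a family of similar copies, so the placement of reads there is uncertain. At Klf17, a zinc finger factor of the early embryo, one piece covered 1.23% of 19010 bp; it was likewise named after its value was seen. Peak positions give no expression level, so the stage label was not checked on expression.

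Oocyte genes and pluripotency and early lineage genes had median mutant H3K27ac cover of 76.3% and 69.9%. The 9 oocyte domains were 36951 bp at Zar1l (8 pieces, 76.3%), 32907 bp at Khdc3 (3 pieces, 26.4%), 26440 bp at Dppa3 (4 pieces, 78.9%), 22977 bp at Npm2 (3 pieces, 37.4%) and 5 narrower ones. Khdc3 belongs to the subcortical maternal complex, and Dppa3 protects maternal DNA methylation. Among pluripotency and lineage genes, Sall4 had 47318 bp with 4 pieces and 80.4%, Klf2 33181 bp with 8 pieces and 57.6%, and Yap1 23783 bp with 6 pieces and 72.1%. At Pou5f1, the gene of Oct4, 2 pieces covered 26.6% of 25293 bp, while H3K4me3 covered 92.7% in control and 93.8% in mutant embryos. Only the domain at Fgf4, named after its value was seen, had no mutant H3K27ac peak in this list.

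Across the 19 chromosomes the share of domains divided ranged from 62.3% on chromosome 14 to 78.4% on chromosome 19. Mutant H3K27ac covered between 46.8% (chromosome 14) and 58.1% (chromosome 4) of the domain bases. Mutant H3K4me3 cover was lower than control H3K4me3 cover on each of the 19 chromosomes and ranged from 43.1% to 66.5%.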

How the data were processed

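The analysis used the 4 peak lists the authors deposited, 1 for each mark and injection, each shared by 2 immunoprecipitation libraries; the 8 input libraries were not analysed separately. The lists hold chromosome, start and end, with no score or depth. Per the submitters' processing notes CASAVA, Trimmomatic, Bowtie2, SAMtools, Picard, MACS2 and deepTools were used, with the builds mm10 and GRCm38; settings and any pooling of libraries are not given in the sources used here. Sample groups came from the sample titles.

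Starts were read as 0-based and are printed 1-based. A domain was counted as divided when 2 or more mutant H3K27ac peaks overlapped it by at least 1 bp. Cover is the percentage of its bases under peaks. A gene counted as over a domain when its span overlapped the domain by at least 1 bp. Gene spans came from a RefSeq table of GRCm38.p6 and gene starts and sequences from a RefSeq promoter table, which has entries for 16456 of the 20661 protein-coding genes used and none on chromosome 18. With 1 list per group no p-values were computed. Wilson intervals of 95% treat domains as independent and cover counting error only.

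The members, the 12 gene lists and the 6 motifs were chosen with earlier results of these data known. Named domains were the 10 widest, the 5 with most mutant pieces, and the 5 widest without a mutant H3K27ac peak, covered to at least 95% by 1 mutant peak, or without H3K4me3; 3 peaks on either side of the width limit; and up to 4 genes per list by domain width; promoters are those of the 6 widest such domains with a start. Names outside this rule are marked where they occur, and a few domains that the rule names are not reported here. Alternatives varied the width limit, the joining of peaks, the minimum overlap, the chromosomes and the definition of a gene over a domain. Python 3.11.15, numpy 2.4.6, pandas 2.3.3 and scipy 1.17.1 were used. The interval code was tested on simulated data: all 20 simulated pairs of lists gave the same result as counting base by base, and all 300 simulated domains gave their known number of pieces.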

Additional observations from a re-analysis of the deposited data

How the results depend on the processing

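No paired analysis was possible because the 2 libraries of a group share 1 list, so leaving out a replicate was not possible either. The lists hold no score, so a stricter calling threshold could not be applied and the width limit stood in for it. Of 67 recomputed values, 32 stayed within the 95% Wilson interval of the reported value, or within 1.5 times it for counts; for cover, domains served as the trials of that interval. The other 35 moved, and the cause was not tested except where the setting itself fixes it.

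With limits of 15 and 8 kb the domains divided were 84.3% and 61.4%, those without a mutant H3K27ac peak 2.26% and 9.70%, and those over a gene 87.1% and 78.4%; cover was 57.7% and 53.2% for mutant H3K27ac, 74.9% and 68.4% for control H3K4me3, and 62.1% and 56.6% for mutant H3K4me3. The limit of 15 kb left 2700 domains. Merging of peaks less than 1 kb apart in the overlaid list alone gave 46.1% divided and cover of 58.3%, 72.8% and 60.6% in that order of marks. Merging in all lists gave 51.97% divided, and 56.7% and 69.2% cover by mutant H3K27ac and control H3K4me3; common limits gave 60.4% divided and 56.1% mutant H3K27ac cover. Under these settings, added after the lists had been seen for the other groups, mutant H3K27ac peaks over 10 kb were divided in 33.4% and 42.6% in the control H3K27ac list, and control H3K4me3 peaks in 36.8% and 52.6% in the mutant H3K4me3 list. Counting overlaps from 200 bp gave 68.7% divided; from 1000 bp it gave 59.2%, with 9.82% lacking a mutant peak. Adding chromosome X moved no value past those limits.

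A gene start lay in 36.3% of domains, and a gene within 5 kb of 86.3%. Counted by starts, which not every gene has in the table, the lists had 41 of 53 ribosomal protein, 20 of 41 ribosome biogenesis, 8 of 26 deacetylase-complex, 6 of 24 2-cell, 5 of 18 chaperone, 5 of 22 oocyte and 4 of 18 lineage genes, against 16.9% of all genes with a start. The other lists had 8 of 13 acetyltransferase and reader, 18 of 26 translation factor, 19 of 45 splicing, 11 of 26 proteasome and 0 of 23 differentiated-tissue genes. With margins of 5 kb 1 of the 34 differentiated-tissue genes lay over a domain.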
